A study of Mus musculus with 158 samples.

Results

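CTCF is a zinc-finger protein that binds a long DNA motif and, together with cohesin, marks the ends of chromatin loops and the boundaries between domains. Sites that CTCF occupies are usually open: nucleosomes move aside, and DNase I cuts the flanking DNA. Described here are regions with CTCF ChIP-seq signal in mouse embryonic stem cells (mESCs) but no DNase-seq hotspot in cells of the same hybrid. A hotspot is a stretch of the genome in which reads are denser than in its surroundings. Of 92712 autosomal CTCF hotspots, 72434 reached a −log10 false discovery rate (FDR) of 2 or more, which is an FDR of 1%. Of those, 37989 (52.4%) overlapped no mESC DNase hotspot by even 1 bp, so they were the larger class. They are called DNase-negative CTCF hotspots here, as a short name for this rule only. The remaining 34445 overlapped one and are called DNase-positive CTCF hotspots.

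Both stem cell assays were made in B6xCAST mESCs, cells of an F1 hybrid between C57BL/6J (B6) and CAST/EiJ (CAST) mice, grown in a medium that was mostly 2i with leukaemia inhibitory factor. This hybrid is the one that the labels and methods give, while the study's summary of mESC samples names B6xC3H. CTCF ChIP-seq had 1 sample with no replicate, known by its antibody label, since its title begins like those of DNase-seq. DNase-seq had 2 samples and 1 deposited hotspot set, which is filed under 1 of the 2 samples. By the methods hotspots were called on all data of a hybrid and cell type together. Whether the mESC DNase set rests on both samples or on 1 thus cannot be told. The adult sets came from 5 F1 hybrids, B6x129, B6xC3H, B6xCAST, B6xPWK and B6xSPRET, each in liver, kidney, lung and B cells of mice aged 8 weeks. Each hybrid has B6 as 1 parent, and the other parents of B6xC3H, B6xPWK and B6xSPRET were C3H/HeJ for the first, PWK/PhJ for the next and SPRET/EiJ for the last. The B cells came from femoral marrow of females after depletion of CD43 and Mac-1/CD11b. Each of the 20 adult sets pools all samples of 1 hybrid and tissue, so repeats within a set cannot be told apart and the spread over 5 hybrids was used as the error of a tissue.

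The hotspot files hold no read depth and the study's read totals were not used here, so the measure given is how much each set covered. The mESC DNase set held 112353 autosomal hotspots over 41.4 Mb, and the adult sets held 76055 to 286482 over 28.2 to 126 Mb. Labels were checked against hotspots within 1 kb of the start of 6 marker genes per tissue. The liver, kidney and lung sets held all 6 of their own markers, and the B cell sets 5 or 6, with Vpreb1 missing in B6xC3H and B6xSPRET. The mESC DNase set held all 6 stem cell markers, Pou5f1, Sox2 and Nanog among them, with 2 of the 6 B cell, 1 liver, 1 kidney and 0 lung markers. Markers of other cell types also had hotspots in adult sets: of the 6 B cell markers, lung sets held 3 to 5, kidney sets 2 to 4 and liver sets 0 to 5. Lung sets held 1 to 4 stem cell and 1 to 4 kidney markers, kidney sets 3 or 4 liver markers, and B cell sets 0 to 2 markers of any other list. The part of other cell types in the results was not tested.

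Of all DNase-negative CTCF hotspots, 34.7% held the CTCF core motif, and its letters are shown here for named regions that did. The core motif searched was CCNNNAGNNGGC, on both strands, where N is any base. In the sequences that follow, 30 bases stand on each side of the core, which is in capitals, and each is read 5′ to 3′ on the strand that holds the motif, from the RefSeq copy of mm10. The first set covers the DNase-negative hotspots with the highest CTCF signal and the strongest of those open in every adult set. Regions of these groups near Trim56, Obox2, Nemp1 and Yy1, named further on, held no core motif and so have no line. Each line gives the gene whose start is nearest. Adult hotspots covered the whole core in 20 of 20 sets for H3f3b, Yeats4 and Ctsc, in 3 for Catspere2 and in 0 for Gm10424.
Catspere2, chr1:178072953-178073024, plus strand: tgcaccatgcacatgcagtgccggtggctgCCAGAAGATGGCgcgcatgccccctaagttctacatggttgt
Gm10424, chr5:95232423-95232494, minus strand: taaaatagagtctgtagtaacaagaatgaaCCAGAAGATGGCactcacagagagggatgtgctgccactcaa
H3f3b, chr11:116023879-116023950, plus strand: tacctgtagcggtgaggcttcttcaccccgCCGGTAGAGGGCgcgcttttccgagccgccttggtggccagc
Yeats4, chr10:117216952-117217023, minus strand: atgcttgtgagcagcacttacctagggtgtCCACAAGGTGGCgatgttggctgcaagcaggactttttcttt
Ctsc, chr7:88343942-88344013, minus strand: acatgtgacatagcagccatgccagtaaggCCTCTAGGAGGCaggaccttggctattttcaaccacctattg

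The next set shows DNase-negative hotspots with high CTCF signal that no adult set called open. The core of the first 3 is the same, CCAGAAGAGGGC, and lies in sequence that the genome file masks as repetitive.
Epop, chr11:97642900-97642971, plus strand: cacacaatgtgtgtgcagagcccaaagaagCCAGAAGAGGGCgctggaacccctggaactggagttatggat
Tbata, chr10:61215808-61215879, plus strand: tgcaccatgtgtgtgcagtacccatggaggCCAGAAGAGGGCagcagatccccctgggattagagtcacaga
Oprm1, chr10:6728632-6728703, plus strand: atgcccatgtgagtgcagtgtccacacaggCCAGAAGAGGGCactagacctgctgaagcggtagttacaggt
Gm3486, chr14:41520913-41520984, minus strand: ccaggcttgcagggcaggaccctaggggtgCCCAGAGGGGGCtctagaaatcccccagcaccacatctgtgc

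The last set shows DNase-negative hotspots that were open in all 5 sets of 1 adult tissue and in no other set: liver for Mcm2 and Tbxas1, kidney for Apela and Hmcn1, and B cells for Spdye4c and Ier3. All 6 cores lie in masked sequence, and 4 of them are again CCAGAAGAGGGC. The tissue's hotspots overlapped the region but did not always cover the core: they covered it in 5 of 5 sets for Tbxas1, 4 for Hmcn1, 3 for Mcm2, 3 for Ier3, 2 for Spdye4c and 1 for Apela.
Mcm2, chr6:88896118-88896189, minus strand: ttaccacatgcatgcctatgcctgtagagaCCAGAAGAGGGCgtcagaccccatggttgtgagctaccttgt
Tbxas1, chr6:39013213-39013284, minus strand: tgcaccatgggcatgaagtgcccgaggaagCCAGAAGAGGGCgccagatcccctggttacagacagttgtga
Apela, chr8:65029113-65029184, plus strand: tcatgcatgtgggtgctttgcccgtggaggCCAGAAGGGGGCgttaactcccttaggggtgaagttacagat
Hmcn1, chr1:151066884-151066955, plus strand: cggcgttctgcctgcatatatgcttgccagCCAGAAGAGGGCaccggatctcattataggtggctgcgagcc
Spdye4c, chr2:128369006-128369077, plus strand: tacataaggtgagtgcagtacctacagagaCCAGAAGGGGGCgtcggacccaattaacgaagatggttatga
Ier3, chr17:35766964-35767035, minus strand: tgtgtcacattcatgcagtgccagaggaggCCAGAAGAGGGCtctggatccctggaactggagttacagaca

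DNase-negative CTCF hotspots were mostly weak and narrow. Their median −log10 FDR was 3.85, with quartiles of 2.53 and 7.78, against 26.1, with quartiles of 12.6 and 41.8, for DNase-positive CTCF hotspots. In total 60.8% lay under a value of 5, and 5.41% reached 20 or more, where 61.5% of the DNase-positive ones lay. The ceiling of 100 was reached by 4 DNase-negative and 307 DNase-positive hotspots. The median width was 275 bp, with quartiles of 180 and 372 bp, against 526 bp, with quartiles of 429 and 613 bp, for DNase-positive ones. Together the DNase-negative hotspots covered 10.7 Mb and the DNase-positive ones 18.1 Mb. The members were chosen by the CTCF signal and by overlap with the DNase set, so these values are a description with no test.

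The share of CTCF hotspots that were DNase-negative was lower at higher CTCF signal. It was 86.2% from 2 to 5, 70.5% from 5 to 10, 44.0% from 10 to 20, 11.2% from 20 to 50 and 1.29% from 50 up. At the threshold, the 3 members with the lowest signal, at 2.00, were 94 to 124 bp wide. The 3 regions just outside, which miss the threshold but also round to 2.00, were 80 to 201 bp wide. None of these 6 regions was open in an adult set or held the core motif.

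Most DNase-negative CTCF hotspots were not at the edge of a DNase hotspot. The median distance to the nearest one was 7896 bp, with quartiles of 2573 and 22923 bp. There were 383 DNase-negative hotspots (1.01%) within 100 bp and 4713 (12.4%) within 1000 bp, and 2400 (6.32%) lay over 100 kb away. CTCF signal and motif content were highest at middle distances: from 2000 to 10000 bp away the median −log10 FDR was 4.76 and 43.1% held the core motif. Over 50 kb away these values were 2.78 and 14.3%, and within 500 bp they were 2.95 and 27.9%.

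The 4 DNase-negative hotspots at the ceiling were unlike each other. The widest, 703 bp at chr1:178072549-178073251 in an intron of Catspere2, a gene for a subunit of the sperm calcium channel, was open in 2 liver sets and 1 B cell set. A 648-bp region at chr5:137103778-137104425, between genes and 11782 bp from the start of Trim56, a ubiquitin ligase gene, held no core motif and was open in 1 liver set. The other two were narrow for this signal, since DNase-negative hotspots of 50 or more had a median width of 594.5 bp. One measured 298 bp at chr7:15144765-15145062, between genes, with the nearest gene start, that of Obox2, at 243659 bp, and lay 195551 bp from the nearest DNase hotspot. The other measured 297 bp at chr5:95232319-95232615, lay 717734 bp from the nearest DNase hotspot and was open in no adult set. In these narrow regions, 69.8% and 55.9% of the bases were masked as repetitive.

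The region with the fifth highest signal, chr11:116023467-116024399, had a −log10 FDR of 94.4 and lay at the start of H3f3b, which encodes histone H3.3. It was open in all 20 adult sets, and its distance to the nearest mESC DNase hotspot was 18 bp. The next 4 regions open in all 20 sets lay farther away, at 6372 bp in an intron of Yeats4, 13221 bp near Ctsc, 1496 bp in an intron of Nemp1 and 2050 bp near Yy1. Yeats4 encodes a chromatin reader, Ctsc a lysosomal protease, Nemp1 a protein of the nuclear envelope and Yy1 a zinc-finger transcription factor. Across the 20 sets, the adult hotspots on the Nemp1 region had a median −log10 FDR of 86.1, and those on the Yeats4 region 16.3. Some sets had more than 1 hotspot on the Yeats4 region, and each was counted. The lowest value there, 1.40, was that of a 72-bp hotspot in B6xPWK B cells, whose other hotspot there was at 100. In B6xSPRET lung the only hotspot there was at 4.33.

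**Figure D1:**
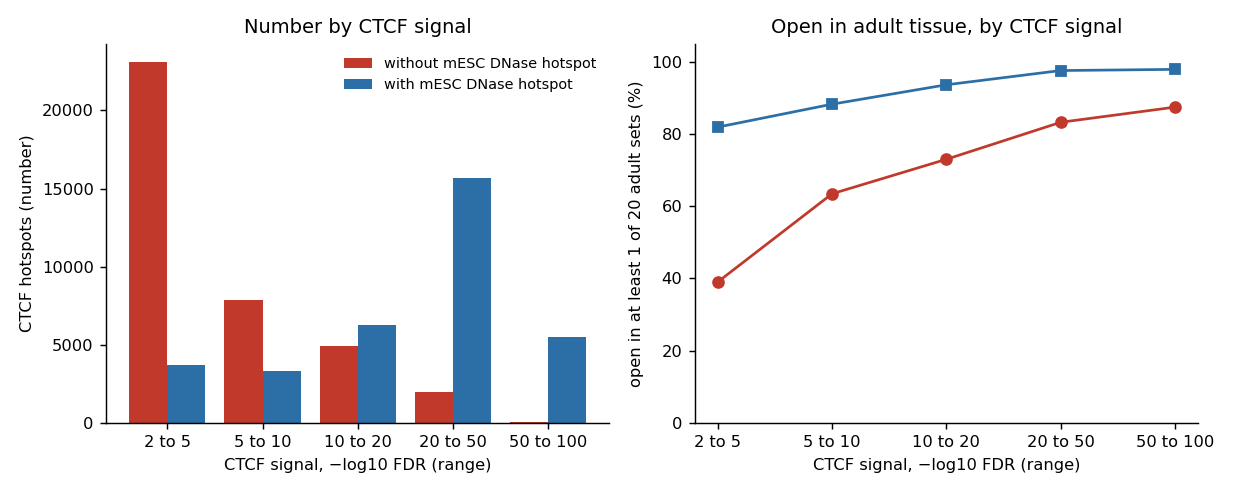
CTCF hotspots of mESCs by range of CTCF signal (x axis, −log10 FDR). Left, bars give the number without (red) and with (blue) an mESC DNase hotspot. Right, points give the percent of each class open in at least 1 of the 20 adult DNase-seq sets, 39.0% against 82.0% in the lowest range and 87.5% against 98.0% in the highest.

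The first comparison asked whether CTCF hotspots that overlapped no mESC DNase hotspot were open in adult tissue. Regions with mESC DNase signal too weak to be called a hotspot also fall in this class, and their part was not tested. A region counted as open in a set if it shared 1 bp or more with a hotspot of that set. The tissues are mixtures of cells, so a region open in few cells and one weakly open in many cannot be told apart. Of the DNase-negative CTCF hotspots, 19350 were open in at least 1 of the 20 adult sets. That is 50.9% (Wilson interval 50.4 to 51.4%, a 95% interval for counting error only), where 71.6% of all CTCF hotspots tested and 94.4% of the DNase-positive class were. In all 20 sets, 956 were open, 2.52% (2.36 to 2.68%), where 24.6% of all CTCF hotspots and 49.0% of the DNase-positive class were. This small share depended on the settings: it was 0.498% with the 75000 highest hotspots of each adult set, 1.07% with 50% overlap and 6.71% at a −log10 FDR of 10 or more. A further 9.89% were open in 1 set only. In 10 or more sets, 16.8% of the DNase-negative and 80.0% of the DNase-positive class were open. The remaining 18639 DNase-negative hotspots, 49.1%, were open in none.

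**Figure D2:**
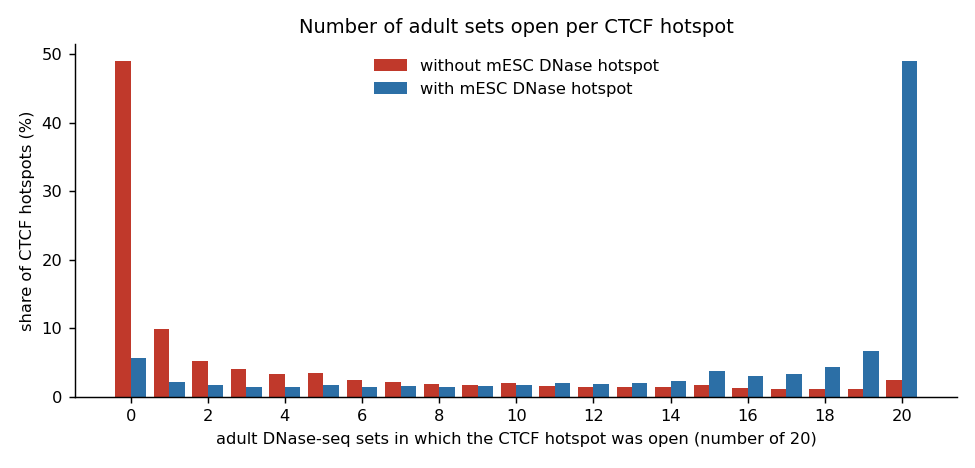
Percent of CTCF hotspots (y axis) by the number of the 20 adult DNase-seq sets in which they were open (x axis). DNase-negative CTCF hotspots (red) pile up at 0 sets, with 49.1%, and CTCF hotspots with an mESC DNase hotspot (blue) at 20 sets, with 49.0%.

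Set by set, the share of DNase-negative CTCF hotspots that were open was lowest for B cells of B6xC3H, at 7.62%, and highest for liver of B6x129, at 33.1%, with a mean of 18.7% ± 6.16 (SD, n = 20 sets). The share of the DNase-positive class ran from 58.4 to 88.4%, with a mean of 76.7% ± 7.49 (SD, n = 20 sets). The groups did not overlap, and the DNase-negative class was lower in 20 of 20 sets, by 50.8 to 62.0 percentage points. The mean difference was −58.0 points (exact two-sided sign-flip permutation test over 20 sets, p = 1.91e-06, the smallest p the test can give). The same CTCF regions enter every set, so the p measures the spread between sets only. With the 5 hybrids as units the exact p was 0.0625, again the smallest that design can give.

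The gap was present in each range of CTCF signal and of width. From 20 to 50, 83.3% of the DNase-negative and 97.6% of the DNase-positive class were open in at least 1 adult set, and 9.69% and 55.7% were open in all 20. For regions of 400 to 600 bp these values were 75.5% and 96.2%, and 6.23% and 48.6%. When the DNase-positive class was weighted to the DNase-negative class's distribution over the 5 ranges of signal, a setting chosen after the data were seen, the mean difference was −41.2 points. Weighted over 4 ranges of width it was −41.4 points.

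DNase-negative CTCF hotspots were still open more often than positions 1 Mb away. When each region was moved by 1 Mb on its chromosome, 2.30 to 9.41% of the moved DNase-negative regions were open per set, with a mean of 5.78% ± 1.78 (SD, n = 20 sets). The unmoved share was higher in 20 of 20 sets. Only this shift was used, and whether reads can map uniquely at the moved positions was not checked. Over all sets together, 20.4% of the moved regions were open in at least 1 set, against 50.9% in place. Adult hotspots that fell on DNase-negative CTCF hotspots only were of middling rank: their median percentile by −log10 FDR within a set was 41.4 to 55.3, against 65.9 to 84.3 on the DNase-positive class. Their median width was 204 to 259 bp, against 280 to 437 bp. Adult hotspots that touched both classes were counted for the DNase-positive class alone. The part of this rule in these gaps was not tested.

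**Figure D3:**
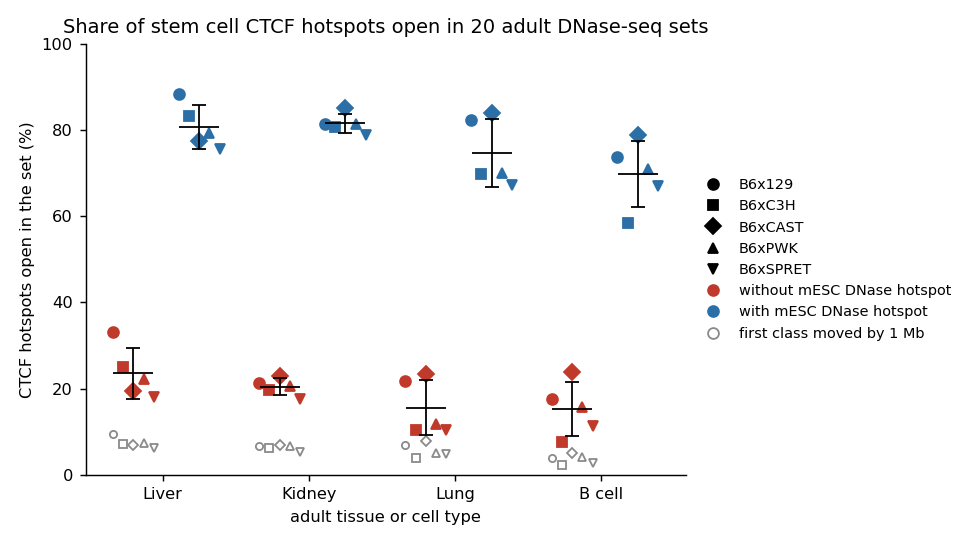
Percent of CTCF hotspots open (y axis) in each of 20 adult DNase-seq sets by tissue (x axis) and hybrid (symbol). Red, DNase-negative CTCF hotspots. Blue, CTCF hotspots with an mESC DNase hotspot. Grey, DNase-negative hotspots moved by 1 Mb. Bars give the mean and SD of 5 hybrids. Red symbols lie between 7.62 and 33.1%, below every blue symbol (58.4% or more) and above the grey symbol of the same set.

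The second comparison asked whether tissues or hybrids differed in the share of DNase-negative CTCF hotspots that were open. The liver share was 33.1% for B6x129, 24.96% for B6xC3H, 19.4% for B6xCAST, 22.2% for B6xPWK and 18.04% for B6xSPRET. The kidney shares, with the hybrids in the same order, were 21.4, 19.7, 23.0, 20.6 and 17.6%. Those of lung were 21.8, 10.5, 23.4, 11.8 and 10.5%. B cells gave 17.7, 7.62, 23.9, 15.7 and 11.4%. Kidney had the narrowest spread, and the 4 tissues overlapped each other. B6x129 liver, which covered 126 Mb, gave the highest share, and B6xC3H B cells, which covered 28.2 Mb, the lowest.

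Liver had the highest mean, 23.6% ± 5.98 (SD, n = 5 sets), against 17.1% in the other tissues. This did not pass the test (exact permutation within hybrids, 1024 choices, adjusted p = 0.0586), nor did kidney, lung or B cells (adjusted p = 0.194 to 0.448). Each set's share in the DNase-positive class moved with it, so the ratio of the DNase-negative to the DNase-positive share was tested as well. This ratio still rose with the Mb that a set covered, with r = 0.895 over all adult sets, against r = 0.921 for the share. The mean ratio was 0.289 ± 0.0538 for liver sets, 0.250 ± 0.0186 for kidney, 0.204 ± 0.0625 for lung and 0.213 ± 0.0663 for B cells (SD, n = 5 sets each). Liver was higher than the other tissues by 0.0666, in 4 of 5 hybrids (exact permutation within hybrids, adjusted p = 0.0391). Liver sets also covered the most sequence, 94.2 Mb ± 19.1 (SD, n = 5 sets) against 47.3 ± 15.7 in B cells, and the part of coverage in the result was not tested in that fit. The B6x129 liver set also held 5 of the 6 B cell markers, against 0 to 3 in the liver sets of the other hybrids, and the part of these cells in the result was not tested.

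With each adult set cut to its 75000 highest hotspots, this order did not hold. The liver ratio then differed from the rest by 0.0015 (exact permutation, adjusted p = 0.907). B cells instead had the higher ratio, by 0.0529 (exact permutation, adjusted p = 0.0078), and the higher share, by 4.38 points (adjusted p = 0.0117). The cut fell unequally on the tissues. Liver sets held 205195 to 286482 autosomal hotspots before it, and B cell sets 76055 to 151020, so far fewer were removed in B cells. The part of this in the B cell lead was not tested. Leaving out any hybrid but B6xCAST also ended the liver call, with adjusted p of 0.0938 without B6xSPRET to 0.188 without B6xC3H. No hybrid passed the test in the share (exact permutation within tissues, 625 choices, adjusted p = 0.168 to 0.669) or the ratio (0.184 to 0.758). In both measures B6x129 lay above the mean of the other hybrids in 4 of 4 tissues, and B6xSPRET in 0 of 4. B6x129 had the highest mean share, 23.5% ± 6.69 (SD, n = 4 sets), and B6xSPRET the lowest, 14.4% ± 3.99 (SD, n = 4 sets).

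By tissue, 37.5% of the DNase-negative CTCF hotspots were open in at least 1 liver set, 29.9% in a kidney set, 28.2% in a lung set and 27.1% in a B cell set. Over all CTCF hotspots the liver share was 62.4%, the kidney share 57.6%, the lung share 55.9% and the B cell share 52.8%. Among the DNase-negative hotspots, 5298 (13.9%) were open in all 4 tissues and 6378 (16.8%) in 1 tissue only. That single tissue was liver for 2660, B cells for 1636, lung for 1057 and kidney for 1025.

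DNase-negative CTCF hotspots open in all 5 sets of a tissue and in no other set numbered 306 for liver (0.805%), 126 for kidney (0.332%), 59 for lung (0.155%) and 49 for B cells (0.129%). Over all CTCF hotspots these shares were 0.494% for liver, 0.222% for kidney, 0.119% for lung and 0.0732% for B cells, and in the DNase-positive class 0.151, 0.102, 0.0784 and 0.0116%. The strongest liver-only region lay in an intron of Mcm2, a subunit of the replicative helicase, and the next in an intron of Tbxas1, which encodes thromboxane synthase. The hotspots on the Tbxas1 region were at the ceiling of 100 in all 5 liver sets, and those on the Mcm2 region had a median of 4.46. The 2 kidney-only regions lay in an intron of Apela, which encodes a peptide ligand of the apelin receptor, and between genes 73540 bp from the start of Hmcn1, a gene for an extracellular matrix protein. Their median values were 17.1 and 32.8. Of the lung-only regions, chr4:43730898-43731379 covered an exon of Spaar, and chr5:36394846-36395607 lay in an intron of Sorcs2, a sorting receptor gene. Neither held the core motif. The B cell-only regions lay between genes, 223031 bp from the start of Spdye4c and 54473 bp from that of Ier3, an immediate early gene.

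DNase-negative CTCF hotspots lay away from gene starts. Of them 1020 (2.68%, Wilson interval 2.53 to 2.85%) were within 1 kb of the start of a protein-coding gene, against 15.4% of the DNase-positive class, and 42.7% were over 50 kb away, against 26.5%. Midpoints lay in exons for 4.14%, in introns for 43.2% and between genes for 52.7%, against 8.60, 41.6 and 49.8% of the DNase-positive class. The low share at gene starts held in each range of CTCF signal, at 2.55 to 4.17% in DNase-negative and 9.52 to 42.1% in DNase-positive hotspots. DNase-negative regions open in all 20 adult sets were nearest to gene starts, with 14.2% within 1 kb, against 1.45% of those open in none.

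All 19 autosomes carried DNase-negative CTCF hotspots, at 12.4 to 19.8 per Mb, with chromosome 11 densest. They made up 46.7% of the CTCF hotspots of chromosome 19 and 56.5% of those of chromosome 14. In windows of 1 Mb the median was 14 DNase-negative hotspots and the highest number 62, in the window that starts at chr1:88000001. Of these 62, 25.8% were open in an adult set.

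Gene families and loci were looked at next, from lists of genes that are known for CTCF sites or for long clusters. Of the CTCF hotspots in genes of the olfactory receptors (Olfr), 122 of 153 were DNase-negative, 79.7% (Wilson interval 72.7 to 85.3%). In the vomeronasal receptors (Vmn1r and Vmn2r), 42 of 50 were, 84.0% (71.5 to 91.7%). Over all CTCF hotspots 52.4% were DNase-negative. The DNase-negative ones in these families were weak, with a median −log10 FDR of 3.01 and 2.52, and 24.6% and 16.7% of them were open in an adult set. Among all CTCF hotspots with a value from 2 to 5, 86.2% were DNase-negative, and the families were not compared at like signal. Zfp genes, many of which encode zinc-finger proteins, had 234 of 455 DNase-negative (51.4%), and Slc transporter genes 388 of 764 (50.8%). In the protocadherin genes (Pcdh), where CTCF is known to guide promoter choice, 69 of 151 were DNase-negative, and in Hox genes 9 of 21. In an adult set, 25 of the 69 and 9 of the 9 were open, against 50.9% of all DNase-negative hotspots. In the wider windows around the Hox clusters, 4 of 7 were open at Hoxa, 5 of 8 at Hoxb, 4 of 5 at Hoxc and 5 of 6 at Hoxd.

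Counts at single loci were small and are given beside the share over all CTCF hotspots, 52.4% DNase-negative, and over all DNase-negative hotspots, 50.9% open in an adult set. At some imprinted control regions CTCF is known to bind the unmethylated parental copy. The window of H19 and Igf2 held 5 DNase-negative of 12 CTCF hotspots, that of Meg3 and Dlk1 10 of 15, Rasgrf1 3 of 8, Kcnq1ot1 3 of 4, Snrpn 2 of 2, Grb10 1 of 4, Peg3 0 of 6 and Peg13 0 of 2. These windows thus fell on both sides of 52.4%. CTCF sites are also known to shape the rearrangement of antigen receptor genes. The Igh window held 88 of 126, of which 41 were open in an adult set, and Igk 62 of 90, of which 37 were. Tcra held 39 of 62, of which 26 were open, and Tcrb 10 of 21, of which 8 were.

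Of the 23 DNase-negative hotspots in and around 14 B cell genes, 15 were open in at least 1 B cell set, 8 in a liver, 8 in a kidney and 10 in a lung set. Over all DNase-negative hotspots, 27.1% were open in B cells. The other lists held few. Around 14 liver genes there were 5, with 4 open in liver, where 37.5% of all DNase-negative hotspots were, 2 open in lung and 1 each in the other tissues. Around 14 kidney genes there were 12, with 7 open in kidney, where 29.9% of all were, 5 in liver, 4 in lung and 2 in B cells. Around 12 lung genes there were 5, with 3 open in lung, where 28.2% of all were, and 2 in each of the other tissues. Around 12 stem cell genes, 31 of 55 CTCF hotspots were DNase-negative, 56.4%, near the 52.4% over all CTCF hotspots. Of the 31, 15 were open in no adult set, against 49.1% of all DNase-negative hotspots. The DNase-negative share was below 52.4% in the adult lists. It was 23 of 49 (46.9%) around B cell and 12 of 34 (35.3%) around kidney genes. Around lung genes it was 5 of 16 (31.2%) and around liver genes 5 of 20 (25%).

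The core motif was found in 13187 DNase-negative CTCF hotspots, 34.7% (Wilson interval 34.2 to 35.2%), and in 51.3% of the DNase-positive class. Moved by 1 Mb, 3.52% of the DNase-negative regions and 6.87% of the DNase-positive ones held it. The share was lower in the DNase-negative class on 19 of 19 autosomes. Within a range of CTCF signal the order was the other way round: from 5 to 10 it was 45.8% in DNase-negative (44.7 to 46.9%) and 36.4% in DNase-positive hotspots (34.8 to 38.0%), and from 10 to 20 it was 55.9% (54.5 to 57.3%) and 46.9% (45.6 to 48.1%). In DNase-negative hotspots the motif lay close to the centre: 83.2% of the 13858 matches were within 50 bp of the midpoint, against 62.7% in the wider DNase-positive ones. The share in DNase-negative hotspots was 58.3% at a −log10 FDR of 10 or more, 25.7% over all deposited CTCF hotspots and, in a setting added after the data were seen, 17.2% for regions under 10% masked. A stricter form, CCNNNAGGGGGC, was in 4.49% of the DNase-negative and 11.8% of the DNase-positive class.

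**Figure D4:**
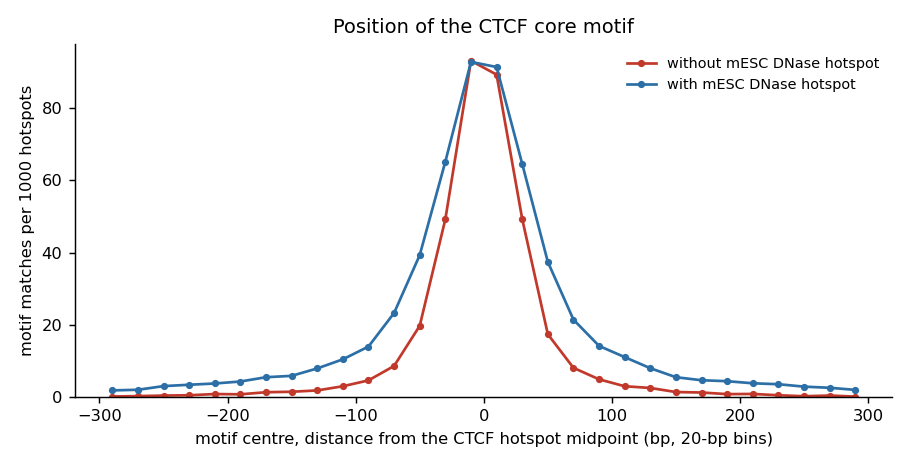
Matches of the CTCF core motif per 1000 hotspots (y axis) by distance of the motif centre from the hotspot midpoint (x axis, 20-bp bins). Red, DNase-negative CTCF hotspots. Blue, those with an mESC DNase hotspot. Both peak at the midpoint, and 83.2% of the matches in DNase-negative hotspots lie within 50 bp of it.

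One spelling of the motif stood out. CCAGAAGAGGGC, the core of the Epop, Tbata, Oprm1, Mcm2, Tbxas1, Hmcn1 and Ier3 regions, made up 6412 of the 13858 matches in DNase-negative hotspots, 46.3%, against 15.8% in the DNase-positive class. The next spelling, CCAGAAGGGGGC, which is that of the Apela and Spdye4c regions, made up 3.27%. In all, 6337 DNase-negative hotspots (16.7%, Wilson interval 16.3 to 17.1%) and 3032 DNase-positive ones (8.80%) held CCAGAAGAGGGC. Moved by 1 Mb, 0.692% of the DNase-negative regions did. Its letters were shown with 6 more on each side to see how far the likeness goes, and these are 3 of the most frequent forms in DNase-negative hotspots.
Form in 204 matches of DNase-negative and 51 of DNase-positive hotspots: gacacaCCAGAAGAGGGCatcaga
Form in 127 matches of DNase-negative and 28 of DNase-positive hotspots: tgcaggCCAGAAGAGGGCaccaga
Form in 120 matches of DNase-negative and 25 of DNase-positive hotspots: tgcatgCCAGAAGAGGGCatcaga

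Much of this lay in repetitive sequence. The median share of bases that the genome file masks as repetitive was 25.2% in DNase-negative and 12.9% in DNase-positive hotspots, and it was higher in the DNase-negative class on 19 of 19 autosomes. Regions over 50% masked made up 28.7% of the DNase-negative class and 7.98% of the DNase-positive class. Of the motif matches themselves, 61.0% in DNase-negative (Wilson interval 60.2 to 61.8%) and 23.6% in DNase-positive hotspots (23.0 to 24.2%) lay in masked sequence. As background, B2 elements, a family of short interspersed repeats of rodents, are known to carry a CTCF motif and to have spread CTCF sites through rodent genomes. The files used here do not name repeat families, so whether the masked copies are B2 elements was not tested. The authors kept only uniquely mapped reads, and how far this changed the signal in masked regions was not tested.

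DNase-negative hotspots with the motif in masked and in unmasked sequence had similar CTCF signal, with a median −log10 FDR of 5.90 (n = 8066) and 6.30 (n = 5121), and similar width, 338 and 344 bp. They were not alike in adult tissue. Of those with a motif outside masked sequence, 72.4% (Wilson interval 71.2 to 73.7%) were open in at least 1 adult set and 6.56% in all 20. Of those with the motif in masked sequence only, these shares were 55.3% (54.2 to 56.4%) and 1.34%. The first group was open more often in 20 of 20 sets, by 17.1 points ± 6.23 (SD, n = 20 sets). These groups were formed after the data were seen, so no test was run. Among DNase-negative hotspots with a motif, the share whose match was masked went from 73.1% in those open in no adult set to 25.7% in those open in all 20. In the DNase-positive class it was 51.4% at 0 sets, 61.6% at 1 to 5 sets and 12.7% at 20 sets.

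The tissues fell in a different order for the frequent spelling, and also for all motifs in masked sequence. DNase-negative hotspots with CCAGAAGAGGGC were open at 23.9% ± 8.59 in liver, 18.1% ± 10.0 in B cells, 14.4% ± 2.19 in kidney and 9.76% ± 5.62 in lung (SD, n = 5 sets each). B cells were above lung in 5 of 5 hybrids and above kidney in 4 of 5. All DNase-negative hotspots with the motif in masked sequence only (n = 8066) had this order and these counts of hybrids. They were open at 23.8% ± 8.46 in liver and 17.6% ± 9.67 in B cells. In kidney their mean was 14.5% ± 2.05 and in lung 9.96% ± 5.68 (SD, n = 5 sets each). The order was thus not particular to this spelling, and spelling and masking were not told apart. With the motif outside masked sequence, the means were 39.9% ± 8.59 for liver, 38.2% ± 3.12 for kidney, 29.6% ± 11.2 for lung and 26.5% ± 8.46 for B cells, and B cells were above kidney in 0 of 5 hybrids. DNase-negative hotspots without a motif kept that order, with 12.2% ± 4.64 in B cells and 18.7% ± 1.80 in kidney. In the DNase-positive class, hotspots with CCAGAAGAGGGC were at 57.8% ± 13.4 in B cells, 59.9% ± 5.28 in kidney and 45.5% ± 13.3 in lung (SD, n = 5 sets each). B cells were there above lung in 5 of 5 hybrids but above kidney in 2 of 5. No test was run on this order, which was noticed in the data, and the B cell sets covered the least sequence.

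**Figure D5:**
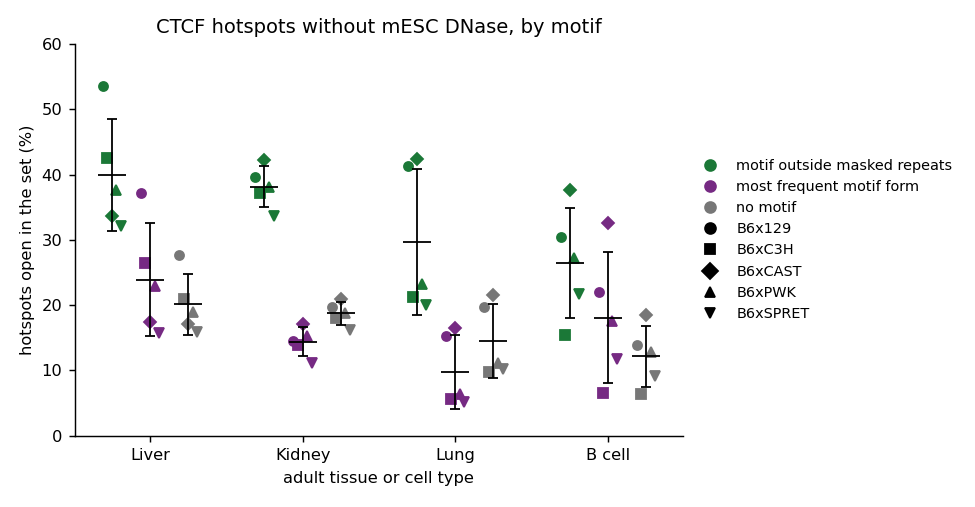
Percent of DNase-negative CTCF hotspots open (y axis) in each adult DNase-seq set by tissue (x axis), hybrid (symbol) and motif (colour). Green, motif outside masked repeats (n = 5121). Purple, the most frequent spelling of the motif (n = 6337). Grey, no motif (n = 24802). Bars give the mean and SD of 5 hybrids. In B cells the purple mean, 18.1%, lies above the grey mean, 12.2%, and in kidney below it, 14.4% against 18.7%.

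The 3 DNase-negative hotspots with this spelling and the highest CTCF signal, looked up after its values were seen, were open in many adult sets. The one at chr7:35386253-35386884, in an intron of Rhpn2, had a −log10 FDR of 79.2 and was open in 18 sets, all of which covered the motif. The one at chr10:117688125-117689088 lay between genes, 21670 bp from the start of Mdm2, which encodes the ligase that targets p53. It reached 74.9 and was open in 19, though the copy of this spelling that was looked up was covered in 1. This region held 2 core motifs, and cover of the other was not looked up. The one at chr12:31460269-31460760, in an intron of the chloride transporter gene Slc26a3, reached 71.1 and was open in 11, all covering the motif.

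Base composition differed as well. The median GC content was 45.3% in DNase-negative and 47.9% in DNase-positive CTCF hotspots, and it was lower in the DNase-negative class on 19 of 19 autosomes. CpG dinucleotides had a median of 0.797 and 1.37 per 100 bp. The 65.3% of DNase-negative hotspots without a core motif were the weakest, with a median −log10 FDR of 3.15 and a median width of 225 bp, and 45.1% of them were open in an adult set.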

How the data were processed

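For DNase-seq and CTCF ChIP-seq, the authors used BWA with mm10 as reference and dropped reads that mapped to several places. Adult samples of 1 hybrid and tissue were then pooled, and hotspot2 was run at an FDR of 5%. In the deposited files a hotspot has a position and a −log10 FDR, which ends at 100. RNA-seq was not used, and read depth is not in the hotspot files.

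From these files, autosomal CTCF hotspots with a −log10 FDR of 2 or more were split by overlap of 1 bp with the mESC DNase set. The members, gene lists and tests were chosen with earlier results of these data known. Shares open were compared between classes by an exact sign-flip test over 20 sets, and between tissues (hybrids) by exact permutation within hybrids (tissues), with Benjamini-Hochberg adjustment and a threshold of 0.05. The tests were checked on simulated data. The p-values measure the spread between pooled sets, not between animals. Shares have 95% Wilson intervals.

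Regions were named by rule, off 1 chromosome that was left out: the 5 with the highest −log10 FDR of all, among those open in all 20 sets and among those open in none, the first 2 per tissue open in its 5 sets and no other, and 3 on each side of the threshold. Gene positions are from GENCODE vM21, coding genes only for starts. Sequence and repeat masking are from the RefSeq copy of mm10. Windows around loci reached 50 kb and those around tissue genes 10 kb beyond the genes. Python 3.11.15 with numpy 2.4.6, scipy 1.17.1, pandas 2.3.3 and matplotlib 3.10.9 was used. Alternatives were other thresholds for each set, merged hotspots, a distance of 1000 bp, 50% overlap, other motif and gene start windows, and leaving out each hybrid.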

Additional observations from a re-analysis of the deposited data

Results flagged for a closer look

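The ratio of DNase-negative to DNase-positive share was higher in liver than in the other tissues by 0.0666 (exact permutation within hybrids, adjusted p = 0.0391), in 4 of 5 hybrids. With the 75000 highest hotspots of each set the difference was 0.0015 (adjusted p = 0.907).

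Chromosomes X and Y stood outside the rule but had CTCF hotspots in the same mESC set. On chromosome X, 2399 of 3420 CTCF hotspots at an FDR of 1% overlapped no mESC DNase hotspot, 70.1% (Wilson interval 68.6 to 71.7%), against 52.4% on the autosomes. Of these, 34.4% were open in at least 1 adult set, against 94.7% of those with an mESC DNase hotspot. On chromosome Y, 81 of 90 had no mESC DNase hotspot, and the adult sets hold no hotspots there. By the methods, only reads on the autosomes and chromosome X were kept, though the mESC CTCF set does hold Y hotspots. Whether Y regions are open in adult tissue thus cannot be judged from these sets. The number of X and Y copies in each set was not used here, and its part in these shares was not tested.

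Of 18 groups of sets (5 hybrids of a tissue or 4 tissues of a hybrid, for the share and the ratio), 0 held a set that stood apart from the others by Dixon's test, which is passed by chance in about 1 of 20 groups.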

How the results depend on the processing

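The gap between classes kept its direction and its call under 16 of 17 other settings. These settings drew on the same CTCF and adult sets, so they are not independent checks. The test also gives its smallest p whenever all sets lie on the same side. With the 5 hybrids as units it was again −58.0 points, but the exact p of 0.0625 is the smallest possible there. The number of DNase-negative hotspots was 7002 at a −log10 FDR of 10 or more. The share open in at least 1 adult set was 76.1% there, 42.3% over all deposited CTCF hotspots, 53.2% with mESC DNase at an FDR of 1%, 50.03% with no DNase hotspot within 1000 bp and 52.1% after merging. It was 46.2% with adult hotspots at an FDR of 1%, 26.5% with the 75000 highest, 38.6% with 50% overlap, and 46.6 to 50.1% with 1 hybrid left out. Chosen after the data were seen, it was 53.1% for members under 10% masked, 53.7% under 50% masked and 50.03% without the frequent spelling. The share open in all 20 sets ran from 0.498% with the 75000 highest adult hotspots to 6.71% at a −log10 FDR of 10 or more, and the motif share from 4.49% with the stricter form to 58.3%, with 17.2% for regions under 10% masked.

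Tissue results depended on how many adult hotspots were used, and the cause was not tested. The cut to 75000 removed a larger part of the liver sets than of the B cell sets. With the 75000 highest, the difference in share was −1.04 points for liver, −0.638 for kidney and 4.38 for B cells, and that in the ratio was 0.0015 for liver, −0.0174 for kidney, −0.0370 for lung (now called, adjusted p = 0.0391) and 0.0529 for B cells. The liver ratio difference was 0.0913 at a −log10 FDR of 10 or more (adjusted p = 0.0762).

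With 1 hybrid left out, liver ranged over 4.86 to 9.08 points in share and 0.0519 to 0.0916 in ratio, B6x129 over 4.93 to 7.61 and 0.0478 to 0.0742, and B6xPWK over −2.94 to 0.107 and −0.0247 to 0.0048. Without B6xCAST, the liver share and both B6x129 differences were called (adjusted p = 0.0156 each). No paired analysis was possible by replicate number because each set pools its samples, so replicates cannot be matched across sets. The class comparison is within each set.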
